A study of Mus musculus with 8 samples.

Results

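The 10 genes described here encode brakes of NF-κB and cytokine signalling: Nfkbia, Tnfaip3, Tnip1, Cyld, Tollip, Irak3, Sigirr, Zc3h12a, Socs1 and Socs3. They were chosen by name, and all 10 were among the 23355 genes of the deposited table and among the 14533 tested. Their transcripts were counted in epithelial cells sorted from the cheek (buccal) mucosa of untreated wild type C57BL/6 mice under specific pathogen free housing, 4 animals at 8 weeks of age (adult) and 4 at 1 week of age (postnatal). The labels name no surface markers for the sort and no sex.

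NF-κB is a family of dimeric transcription factors that is held in the cytoplasm by inhibitory IκB proteins and set free when receptors for TNF, IL-1 or microbial products activate the IκB kinase. Cytokine receptors of another class work through Janus kinases (JAKs) and STAT transcription factors. Each route induces its own inhibitors, so that several of the brakes are also target genes of the route they restrain. In surface epithelia, which lie next to the microbiota, these inhibitors are known for keeping responses to bacterial products and cytokines short.

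None of the 10 brakes passed the test between the ages. A gene was called at an adjusted p under 0.05 in the quasi-likelihood test of edgeR, which called 6.55% of all genes tested (3.33% higher and 3.22% lower at 8 weeks) and 0 of the 10 brakes. With library size alone in place of TMM scaling the split of all calls was 588 higher to 255 lower, in place of 484 to 468, and again 0 brakes were called. Nfkbia, Socs1, Zc3h12a and Irak3 had the lower values at 8 weeks, Cyld had the higher ones, and Tollip and Tnip1 were almost level. Of the brakes 5 had an unadjusted p under 0.05, as did 27.8% of all genes tested. The median log2 fold change (8 weeks over 1 week) of the 10 brakes was -0.29, against -0.0025 over all genes tested, and 8 of the 10 were negative. Without the library 1 week 4 that median was -0.018. DESeq2 called 3 of the brakes (13.8% of its genes, 6.85% higher and 7.0% lower), namely Nfkbia and Socs1 as lower and Cyld as higher. Limma-voom with quality weights also called 3 (11.3% of its genes, 5.31% higher and 5.97% lower), namely Nfkbia and Zc3h12a as lower and Cyld as higher. The authors' deposited table had 2 brakes past the threshold, Nfkbia (adjusted p = 0.0271) and Socs1 (adjusted p = 0.0354), as against 6.61% of its genes. With each library corrected for transcript length and GC content, edgeR called 0 brakes and 2.59% of all genes.

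The stretches before the transcription starts of 5 brakes are shown because these are the brakes with their highest level of all 8 libraries in 1 week 4, and because NF-κB and STAT proteins are known to bind short motifs there. Capitals mark the κB consensus motif, read on both strands, and the STAT palindrome TTCNNNGAA. The sequences are from RefSeq (GRCm38.p6), 5′ to 3′ on the strand of the gene, cut to the part of the 250 bases before the start that no GENCODE exon covers. The RefSeq starts used for Tnfaip3 and Socs3 lie inside the gene spans given below. The stretches printed for these genes are therefore downstream of the outermost annotated start.
Nfkbia, chr12:55492648-55492897, minus strand: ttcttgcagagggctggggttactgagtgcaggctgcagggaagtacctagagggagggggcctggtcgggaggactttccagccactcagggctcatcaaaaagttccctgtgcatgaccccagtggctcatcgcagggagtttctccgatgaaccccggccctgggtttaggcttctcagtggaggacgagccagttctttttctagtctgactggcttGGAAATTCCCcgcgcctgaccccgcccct
Tnfaip3, chr10:19015411-19015547, minus strand: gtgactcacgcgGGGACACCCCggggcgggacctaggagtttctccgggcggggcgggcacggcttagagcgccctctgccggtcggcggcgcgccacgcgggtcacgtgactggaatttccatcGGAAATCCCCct
Tnip1, chr11:54962941-54963190, minus strand: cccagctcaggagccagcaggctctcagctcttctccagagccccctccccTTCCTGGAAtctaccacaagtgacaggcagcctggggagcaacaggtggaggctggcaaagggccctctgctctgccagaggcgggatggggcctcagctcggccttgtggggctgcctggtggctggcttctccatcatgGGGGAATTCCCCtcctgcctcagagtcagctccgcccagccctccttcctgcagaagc
Socs1, chr16:10785537-10785786, minus strand: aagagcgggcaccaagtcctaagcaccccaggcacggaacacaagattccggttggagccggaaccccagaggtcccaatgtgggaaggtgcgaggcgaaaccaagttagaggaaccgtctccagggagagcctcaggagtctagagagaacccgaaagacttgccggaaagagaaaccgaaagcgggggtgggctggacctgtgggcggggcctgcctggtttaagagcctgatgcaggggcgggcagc
Socs3, chr11:117969452-117969616, minus strand: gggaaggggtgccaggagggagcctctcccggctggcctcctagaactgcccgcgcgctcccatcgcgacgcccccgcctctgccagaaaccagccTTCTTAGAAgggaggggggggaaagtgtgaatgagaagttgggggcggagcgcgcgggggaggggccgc

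Windows of 300 bases (250 before and 50 from the RefSeq start) were found for 9 of the 10 brakes, 11 windows in all, since Tnfaip3 and Irak3 have 2 each. Positions count from that start, which need not be the end of the gene span. Sigirr had none. The κB consensus stood in the windows of 4 brakes: for Nfkbia with its first base at position -29, for Tnfaip3 at -125 and -12, for Cyld at -155, and for Tnip1 as 3 overlapping matches at -58, -57 and -56. Of all 32851 windows of this length 8.46% held it. The STAT palindrome stood before Socs3 at -154 and before Tnip1 at -199, and in 8.3% of all windows. The windows of Socs1, Zc3h12a, Irak3 and Tollip held neither. A match describes letters and is not a measured binding site, and a window without one says nothing of sites elsewhere.

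Nfkbia (ENSMUSG00000021025, GRCm38, chromosome 12, 55489410 to 55492647) encodes IκBα, the inhibitor that binds NF-κB dimers in the cytoplasm and is itself a prompt NF-κB target. It stood at 60.6, 83.4, 65.1 and 69.7 CPM (counts scaled to library size by TMM) in the 8 weeks libraries 1 to 4, against 95.8, 99.6, 75.1 and 153 CPM in the 1 week libraries 1 to 4. The highest library of 8 weeks lay above the lowest of 1 week, so the ages overlapped by that pair of libraries. The means were 69.7 ± 9.87 CPM at 8 weeks and 106 ± 33.1 CPM at 1 week (SD, n = 4 each), a log2 fold change of -0.60 (SE 0.18, edgeR adjusted p = 0.0599). Without 1 week 4 the log2 fold change was -0.37 (adjusted p = 0.104). Nfkbia passed in edgeR without 1 week 3 (-0.74, adjusted p = 0.0333, with 4.8% of all genes called) or without 8 weeks 2 (-0.71, adjusted p = 0.0357, with 12.6% called), the libraries nearest to the other age. It also passed in DESeq2 (adjusted p = 0.0174) and in limma-voom (adjusted p = 0.035).

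Tnfaip3 (ENSMUSG00000019850, chromosome 10, 19000910 to 19015657) encodes A20, the ubiquitin-editing enzyme that shuts off signalling from the TNF receptor complex. Its levels were 12.1, 13.2, 11.4 and 7.93 CPM in the 8 weeks libraries, against 10.6, 16.6, 5.65 and 24.0 CPM in the 1 week libraries. The 4 animals of 8 weeks lay inside the range of those of 1 week, whose highest library (1 week 4) was 4.25-fold above the lowest (1 week 3). This gave a log2 fold change of -0.35 (SE 0.33, edgeR adjusted p = 0.515), and of 0.02 without 1 week 4.

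Tnip1 (ENSMUSG00000020400, chromosome 11, 54910785 to 54962917) encodes ABIN1, a ubiquitin-binding partner of A20. It ranged from 30.8 to 41.0 CPM at 8 weeks and from 31.8 to 44.7 CPM at 1 week. Its log2 fold change was -0.052 (SE 0.12, edgeR adjusted p = 0.816), with a change of sign under library size alone (0.038). Tnip1 was one of the steadier brakes, although its highest library was again 1 week 4.

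Cyld (ENSMUSG00000036712, chromosome 8, 88697028 to 88751945) encodes a deubiquitinase that removes the ubiquitin chains on which the IκB kinase is activated. It stood at 56.1, 45.3, 59.9 and 44.7 CPM in the 8 weeks libraries, against 35.3, 38.4, 39.6 and 45.4 CPM in the 1 week libraries. Only the highest library of 1 week, 1 week 4, reached the range of 8 weeks. The means were 51.5 ± 7.64 CPM at 8 weeks and 39.7 ± 4.21 CPM at 1 week (SD, n = 4 each), a log2 fold change of 0.38 (SE 0.12, edgeR adjusted p = 0.0754). Cyld passed without 8 weeks 2 (adjusted p = 0.0475), in DESeq2 (adjusted p = 0.0416) and in limma-voom (adjusted p = 0.0498). Its longest transcript is 8022 bp, the longest of the 10 brakes, and with the length and GC correction the log2 fold change was 0.17 (adjusted p = 0.301).

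**Figure D1:**
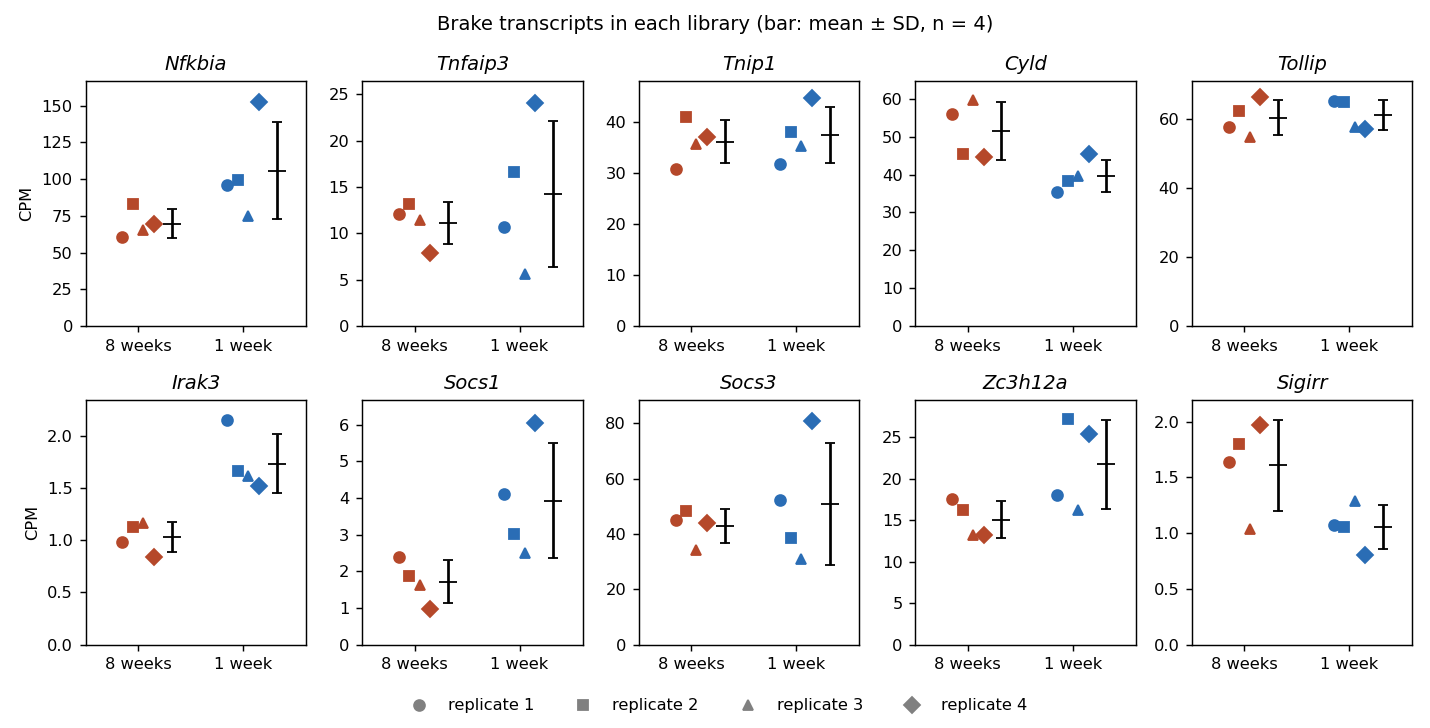
CPM of each brake (vertical axes, linear from 0) in the 4 libraries of 8 weeks (left, red) and the 4 of 1 week (right, blue), with the mean ± SD of each age in black. The diamonds of 1 week 4 top the panels of Nfkbia, Tnfaip3, Tnip1, Socs1 and Socs3, and the ages are apart for Irak3 and Socs1 alone.

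Tollip, Irak3 and Sigirr act at the receptors for IL-1 and microbial products. Tollip (ENSMUSG00000025139, chromosome 7, 141874813 to 141918507) encodes an adaptor that binds the receptor-associated kinases. It ranged from 54.9 to 66.5 CPM at 8 weeks and from 57.2 to 65.2 CPM at 1 week, the narrowest spread of the 10 brakes at either age. Between the ages it differed by -0.022 on the log2 scale (SE 0.10, edgeR adjusted p = 0.903), and by 0.075 under library size alone.

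Irak3 (ENSMUSG00000020227, chromosome 10, 120141648 to 120202130) encodes IRAK-M, an inactive member of that kinase family that holds back its active relatives. It was scarce, with 12 to 24 reads per library. Its levels were 0.98, 1.12, 1.16 and 0.84 CPM in the 8 weeks libraries, against 2.15, 1.66, 1.61 and 1.51 CPM in the 1 week libraries. Every library of 8 weeks lay below every library of 1 week. Irak3 had a log2 fold change of -0.75 (SE 0.34, edgeR adjusted p = 0.175), and no alternative brought it past the threshold (lowest adjusted p = 0.156). The gene overlaps Tmbim4 on the opposite strand (1021 counts over the 8 libraries) and the antisense gene Gm47009. The strand setting of the counting is not given, and whether reads of these genes entered the count of Irak3 was not tested. Tnip1 and Cyld overlap processed pseudogenes on the opposite strand.

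Sigirr (ENSMUSG00000025494, chromosome 7, 141091175 to 141100572) encodes a single-domain receptor that interferes with IL-1 and Toll-like receptor signalling and is known from epithelia of the gut. It had 9 to 30 reads per library, or 1.63, 1.80, 1.03 and 1.97 CPM in the 8 weeks libraries, against 1.07, 1.05, 1.29 and 0.80 CPM in the 1 week libraries. One library of 8 weeks, 8 weeks 3, fell inside the range of 1 week. Sigirr had a log2 fold change of 0.60 (SE 0.37, edgeR adjusted p = 0.305).

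Socs1 and Socs3 encode suppressors of cytokine signalling, STAT targets whose proteins bind JAKs or receptor chains and hold back their signalling. Socs1 (ENSMUSG00000038037, chromosome 16, 10782240 to 10785536), known for restraining interferon signalling, stood at 2.40, 1.87, 1.62 and 0.98 CPM in the 8 weeks libraries, against 4.12, 3.01, 2.50 and 6.05 CPM in the 1 week libraries. The ages did not overlap, although 8 weeks 1 and 1 week 3 were close to each other. The means were 1.72 ± 0.59 CPM at 8 weeks and 3.92 ± 1.57 CPM at 1 week (SD, n = 4 each), and the log2 fold change of -1.18 (SE 0.37, edgeR adjusted p = 0.0697) was the widest among the brakes. It passed in DESeq2 (adjusted p = 0.0228) and not with any library left out (adjusted p = 0.0577 to 0.166). Its log2 fold change was -0.89 without 1 week 4. With Irak3, Socs1 made 2 of 10 brakes without overlap, both lower at 8 weeks, against 14.8% of all genes tested without overlap in either direction and 7.11% lower at 8 weeks.

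Socs3 (ENSMUSG00000053113, chromosome 11, 117966079 to 117970047), known for restraining the receptors of the IL-6 family, was far more abundant. It stood at 45.0, 48.4, 34.3 and 43.9 CPM in the 8 weeks libraries, against 52.3, 38.5, 31.0 and 80.9 CPM in the 1 week libraries. As for Tnfaip3, the 4 values of 8 weeks lay between the lowest and the highest of 1 week. Socs3 had a log2 fold change of -0.24 (SE 0.23, edgeR adjusted p = 0.53), and of 0.08 without 1 week 4.

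Zc3h12a (ENSMUSG00000042677, chromosome 4, 125118423 to 125127840) encodes Regnase-1, an endonuclease that degrades the messenger RNAs of inflammatory cytokines. Its levels were 17.6, 16.2, 13.3 and 13.2 CPM in the 8 weeks libraries, against 18.1, 27.2, 16.2 and 25.5 CPM in the 1 week libraries. Both libraries above 20 CPM were of 1 week, and the other values of the ages lay within a narrow band. Zc3h12a had a log2 fold change of -0.53 (SE 0.18, edgeR adjusted p = 0.0824) and passed in limma-voom (adjusted p = 0.0442).

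**Figure D2:**
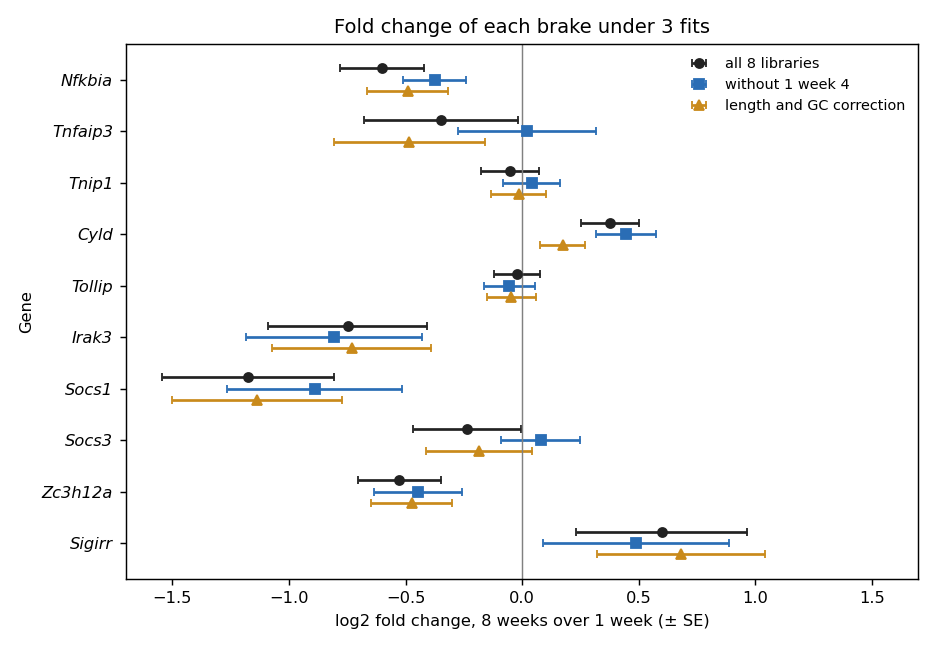
Log2 fold change of each brake, 8 weeks over 1 week (horizontal axis, points with SE), from all 8 libraries (black circles), without 1 week 4 (blue squares) and with the length and GC correction (ochre triangles). Without 1 week 4 the points of Tnfaip3, Tnip1 and Socs3 lie at 0.02, 0.041 and 0.081, and that of Cyld moves to 0.17 with the correction.

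The brakes differed in how much they varied between animals of 1 age. At 8 weeks their coefficients of variation ran from 8.37% (Tollip) to 34.2% (Socs1), and at 1 week from 7.06% (Tollip) to 55.6% (Tnfaip3). Over the 10460 genes of at least 5 CPM the median was 11.9% at 8 weeks and 12.4% at 1 week. Socs1, Irak3 and Sigirr lay below 5 CPM, so these medians do not cover them, and Socs1 rested on 14 to 68 reads per library. At 1 week Nfkbia (31.3%), Socs1 (40.1%), Socs3 (43.4%) and Tnfaip3 (55.6%) were the most variable brakes, all of them known as quickly induced genes. At 8 weeks these 4 stood at 14.2% (Nfkbia), 34.2% (Socs1), 14.1% (Socs3) and 20.3% (Tnfaip3). Each of these 4 was highest in 1 week 4 and lowest in 1 week 3 among the libraries of 1 week, an order that 10.6% of all genes tested had. Of the 10 brakes 5 had their highest level of all 8 libraries in 1 week 4, as had 12.5% of all genes tested. Tollip, Irak3 and Sigirr were at their lowest of 1 week in that library.

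**Figure D3:**
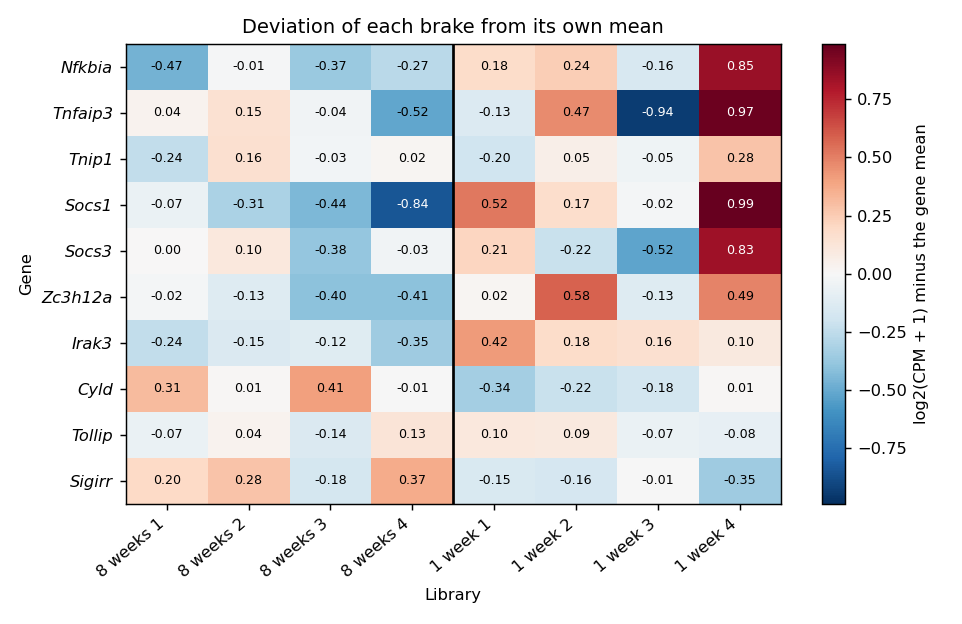
Log2(CPM + 1) of each brake (rows) in each library (columns, 8 weeks left of the line, 1 week right of it) minus the mean of that gene over the 8 libraries. The column of 1 week 4 reaches 0.85 for Nfkbia, 0.97 for Tnfaip3, 0.99 for Socs1 and 0.83 for Socs3, while Tollip departs from its mean by at most 0.14 in either direction.

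Other induced genes were high in the same library. The summed level of 18 immediate early genes (Fos, Jun, Egr1, Atf3 and others, which cells switch on within minutes of a stimulus or of tissue handling) was 1874 to 2175 CPM in the 8 weeks libraries, against 2016, 1403, 1852 and 4074 CPM in the 1 week libraries 1 to 4. This list also holds the chaperone genes Hspa1a, Hspa1b and Dnajb1, which are stress genes. Fos, chosen after its values were seen, stood at 685 CPM in 1 week 4 and at 148 to 281 CPM in the other libraries of 1 week. The sum of 12 STAT target genes was 352.6 to 433.8 CPM at 8 weeks and 316.5, 413.4, 297.1 and 677.1 CPM at 1 week. Of these the interferon-induced GTPase gene Gbp2 and the chemokine gene Cxcl10, also chosen after their values were seen, reached 85.1 and 29.6 CPM in 1 week 4, against at most 45.0 and 5.42 CPM elsewhere in that age. The 20 NF-κB target genes found summed to 270.5 to 306.5 CPM at 8 weeks and to 289.9, 307.6, 263.7 and 377.5 CPM at 1 week. Lists not chosen as induced genes also peaked in 1 week 4, namely further IκB proteins, ubiquitin and A20 partners, SOCS proteins with phosphatases, and decoy receptors. These lists are not free of induced genes, since several inhibitors are targets of the route they restrain. The sums for RNA decay, for IκB kinase activators and for JAKs, STATs and cytokine receptors peaked in 8 weeks 1. That of the TNF and IL-1 family receptors was lowest in 1 week 4, at 200.7 CPM. The part of all these genes in the levels of the brakes was not tested.

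**Figure D4:**
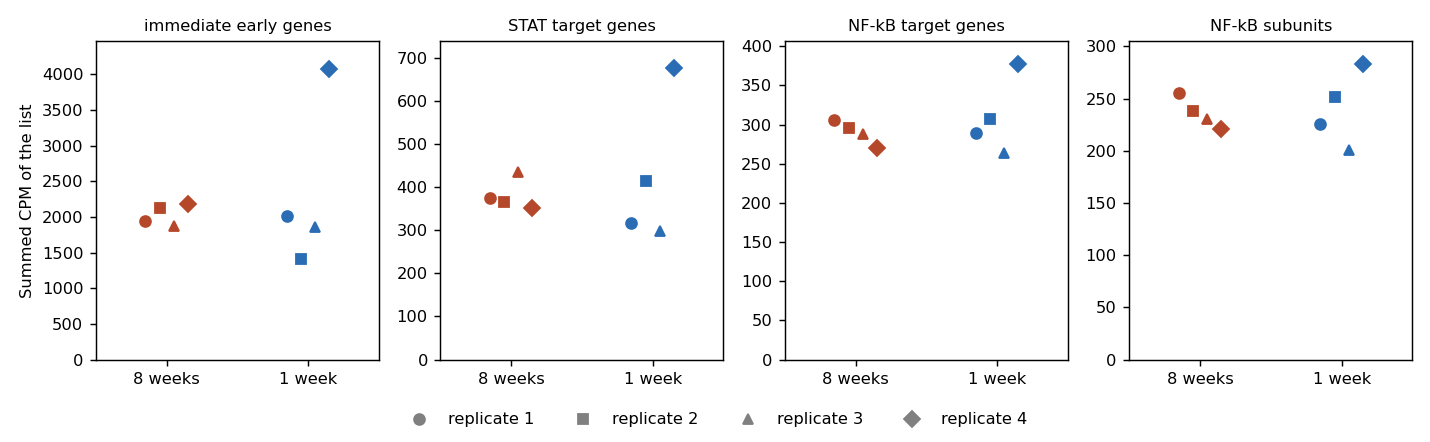
Summed CPM (vertical axes, linear from 0) of the immediate early, STAT target, NF-κB target and NF-κB subunit lists in each library, 8 weeks left and 1 week right. The diamond of 1 week 4 is the highest point of each panel, at 4074, 677.1, 377.5 and 283.4 CPM.

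Per kilobase of exon the brakes spanned a wide range, and their order was much the same at both ages. Places that lie close together depend on the length used, here the union of exons. This union is 12576 bp for Cyld and 3043 bp for Sigirr, against longest transcripts of 8022 and 1990 bp. Nfkbia led with 43.3 ± 6.13 CPM per kb at 8 weeks and 65.7 ± 20.5 at 1 week (SD, n = 4 each), above the range of every other brake at both ages. Socs3 (14.8 and 17.5), Tollip (11.9 and 12.1) and Tnip1 (10.2 and 10.6) followed with overlapping ranges, and then Zc3h12a (5.23 and 7.54), Cyld (4.10 and 3.16) and Tnfaip3 (1.54 and 1.97). The lowest were Socs1 (0.59 and 1.35), Sigirr (0.53 and 0.35) and Irak3 (0.28 and 0.47), so that Sigirr stood above Irak3 at 8 weeks and below it at 1 week. The ranges of Zc3h12a and Cyld overlapped at 8 weeks but not at 1 week, and those of Socs1 and Sigirr likewise. The ranges of Cyld, Tnfaip3 and Socs1 overlapped in that order at 1 week and were apart at 8 weeks.

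**Figure D5:**
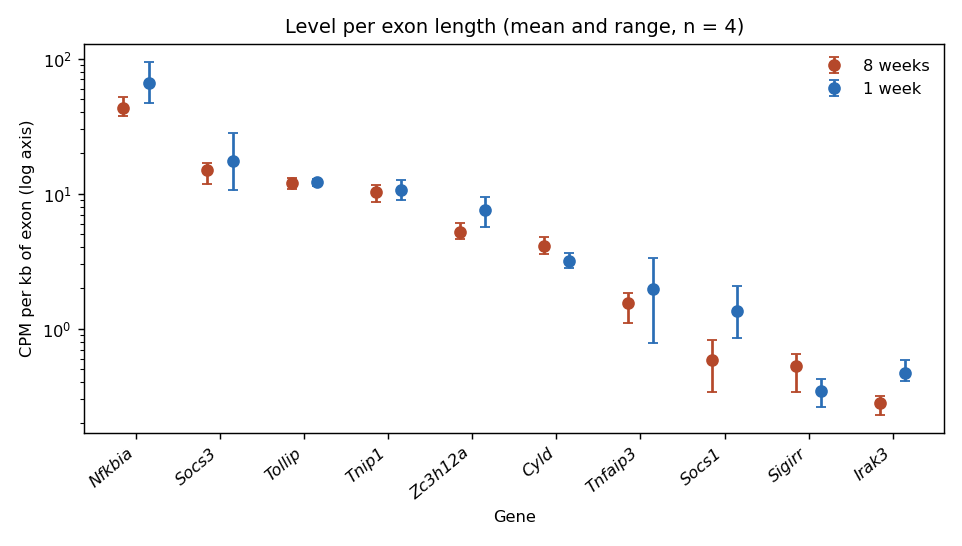
CPM per kb of exon (log axis) of each brake at 8 weeks (red, left of each pair) and 1 week (blue, right), as the mean with the range over 4 libraries. Nfkbia lies highest at 43.3 and 65.7 CPM per kb, and Irak3 and Sigirr lie lowest.

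Each of 6 brakes was also set against a molecule it acts on, as the difference of their log2(CPM + 1) in each library. Socs1 minus Jak1, the kinase gene, was -6.16 ± 0.23 at 8 weeks and -5.20 ± 0.28 at 1 week (SD, n = 4 each), without overlap. The value at 8 weeks minus that at 1 week was -0.97 (p = 0.0286 in a two-sided exact permutation test, which for groups of 4 can go no lower, and 0.171 after adjustment over the 6 pairs). Jak1 itself stood at 190 ± 13.0 and 174 ± 20.4 CPM. Socs3 minus Il6st, the gene of the receptor chain shared by the IL-6 family, differed by -0.66 (exact permutation test, p = 0.171, adjusted p = 0.257), where Il6st passed the test by itself. Nfkbia minus Rela, the gene of the main transactivating NF-κB subunit, differed by -0.33 (exact permutation test, p = 0.143, adjusted p = 0.257). The pairs of Irak3 and its active relative Irak4, of Tnfaip3 and the A20 substrate gene Ripk1, and of Sigirr and the receptor gene Il1r1 differed by -0.38, -0.25 and -0.24 (exact permutation test, adjusted p = 0.257, 0.457 and 0.457). A single pair at the smallest possible p cannot pass after adjustment over 6 pairs. The added 1 is large beside Sigirr, Irak3 and Socs1, at 0.80 to 6.05 CPM, and shrinks their part in these differences. In edgeR the log2 fold changes of Sigirr and Il1r1 were 0.60 and 0.60, so the -0.24 of that pair comes with the added 1. Those of Irak3 and Irak4 were -0.75 and -0.065, and those of Socs1 and Jak1 were -1.18 and 0.13.

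On 5 lists of further brakes (5, 15, 16, 7 and 5 genes tested) edgeR called 2, Cish and Il13ra2, both as lower. Of all genes tested it called 6.55%, and 3.22% as lower. DESeq2 also called Socs2 and Il1r2 as lower and Rc3h2 as higher, where it called 7.0% of its genes as lower and 6.85% as higher. Cish, a SOCS family gene and STAT target, stood at 20.9, 23.9, 20.2 and 22.7 CPM in the 8 weeks libraries, against 32.7, 35.7, 30.2 and 35.6 CPM in the 1 week libraries. Its values did not overlap between the ages and were close together within each, and 1 week 4 did not stand out. The log2 fold change was -0.61 (SE 0.11, edgeR adjusted p = 0.0125). Among the libraries left out, the removal of 8 weeks 3 alone ended the call (adjusted p = 0.0523, with 0.615% of all genes called). It held with the length and GC correction (adjusted p = 0.0117). Cish was the 1 gene called, as lower, among 16 genes of SOCS proteins, PIAS proteins and phosphatases, whose median log2 fold change was -0.0048. Of 5 tested decoy receptor and antagonist genes 1 fell, Il13ra2, the decoy receptor gene for IL-13, at 0.39 ± 0.27 CPM at 8 weeks and 1.69 ± 1.09 CPM at 1 week (SD, n = 4 each; log2 fold change -2.12, SE 0.58, edgeR adjusted p = 0.047). It rested on 3 to 40 reads per library. Removing any 1 library other than 1 week 2 ended this call (adjusted p up to 0.148), as did the correction (adjusted p = 0.0634), library size alone, no filter and limma-voom. The fits with 1 library left out called 0.615% to 12.6% of all genes.

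The other lists of further brakes held no edgeR call. Genes were listed there by group, and whether each of them acts as a brake was not tested. Of 5 genes of further IκB proteins 2 had an unadjusted p under 0.05 (0 called by DESeq2 or limma-voom), Bcl3 at 3.19 ± 0.82 and 5.71 ± 1.91 CPM and Nfkbib at 21.1 ± 3.53 and 26.5 ± 2.96 CPM at 8 weeks and at 1 week (SD, n = 4 each). Of 15 ubiquitin and A20 partner genes 0 had an unadjusted p under 0.05, and 0 were called by DESeq2 or limma-voom. The lowest p values among them were those of the deubiquitinase gene Otud7b, at 67.8 ± 1.94 and 58.9 ± 7.41 CPM, and of Tnip3, at 0.62 ± 0.24 and 1.05 ± 0.27 CPM. Of 7 tested genes of RNA decay 3 had an unadjusted p under 0.05, with 1 called as higher by DESeq2 (Rc3h2, a roquin gene) and 0 by limma-voom. Rc3h2 stood at 92.9 ± 18.8 and 71.3 ± 3.70 CPM and Zfp36l2 at 229 ± 21.1 and 191 ± 9.51 CPM.

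Of 23 tested genes of JAKs, STATs and cytokine receptors edgeR called 4 as higher and 0 as lower, against 3.33% and 3.22% of all genes tested. Limma-voom, and edgeR without 1 week 3, also called 1 as lower, Ifngr2. The median log2 fold change of the list was 0.13, and 0.038 with the length and GC correction. The 4 higher genes were the shared receptor chain gene Il6st (129 ± 18.7 CPM at 8 weeks and 89.9 ± 11.4 CPM at 1 week, SD, n = 4 each; log2 fold change 0.52, SE 0.12, edgeR adjusted p = 0.0338), the LIF receptor gene Lifr (0.58, adjusted p = 0.0283), the receptor gene Il20rb (0.60, adjusted p = 0.0358) and the kinase gene Tyk2 (0.42, adjusted p = 0.046). After the length and GC correction 1 of the 4 was called, Il20rb (0.65, adjusted p = 0.04). Without 8 weeks 1, 8 weeks 3 or 1 week 1 none of the 4 was called, while without 1 week 4 all 4 were. These fits called 0.919%, 0.615%, 0.868% and 5.18% of all genes, in that order. Without 8 weeks 4, 1 week 2, 1 week 3 and 8 weeks 2 the shares were 2.52%, 4.11%, 4.8% and 12.6%. Calls were also lost without 8 weeks 4 (Lifr, Il20rb and Tyk2), 1 week 2 or 1 week 3 (Il20rb and Tyk2) and 8 weeks 2 (Tyk2), and that of Tyk2 with no filter.

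Of the 5 NF-κB subunit genes edgeR called 1, Rel, which encodes the subunit c-Rel, as higher. DESeq2, limma-voom and edgeR without 1 week 3 called Relb as lower, and the median log2 fold change of the list was -0.22, or -0.065 without 1 week 4. Rel stood at 49.5, 36.8, 50.1 and 37.9 CPM in the 8 weeks libraries, against 31.0, 33.7, 33.0 and 30.2 CPM in the 1 week libraries (log2 fold change 0.45, SE 0.12, edgeR adjusted p = 0.0463). Its levels at 1 week were close together and 1 week 4 was the lowest. Removing any 1 library other than 8 weeks 2 ended the call (adjusted p up to 0.145), as did the correction (0.24, adjusted p = 0.178), upper-quartile scaling and no filter. The fit without 8 weeks 2 called 12.6% of all genes, and the others with 1 library left out 0.615% to 5.18%. Of 7 tested TNF and IL-1 family receptor genes Il1r1 rose, at 25.7 ± 3.94 CPM at 8 weeks and 17.0 ± 2.94 CPM at 1 week (SD, n = 4 each; log2 fold change 0.60, SE 0.15, edgeR adjusted p = 0.0374). It was not called without 8 weeks 1, 8 weeks 3, 1 week 1, 1 week 2 or 1 week 3 (highest adjusted p = 0.123), nor with the correction (adjusted p = 0.0756). Of 25 genes of the IκB kinase and its upstream activators edgeR, DESeq2 and limma-voom called 0, and 2 had an unadjusted p under 0.05, the ubiquitin ligase gene Traf6 (34.6 ± 3.07 and 28.8 ± 2.37 CPM at 8 weeks and 1 week) and the adaptor gene Bcl10 (35.9 ± 4.62 and 42.7 ± 2.69 CPM).

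Of 12 tested NF-κB target genes edgeR called 0, with 3 at an unadjusted p under 0.05 and a median log2 fold change of -0.23, or -0.10 without 1 week 4. Tnfaip2 stood at 0.90 ± 0.57 CPM at 8 weeks and 3.52 ± 2.06 CPM at 1 week (SD, n = 4 each; edgeR adjusted p = 0.055) and was called lower by DESeq2 and limma-voom, the 1 gene of the list that either called. The chemokine gene Cxcl16 stood at 13.4 ± 1.31 and 18.8 ± 4.09 CPM. Of 11 tested STAT target genes 1 rose, Bcl6, a repressor gene, at 44.0 ± 7.50 CPM at 8 weeks and 30.1 ± 2.19 CPM at 1 week (log2 fold change 0.55, SE 0.13, edgeR adjusted p = 0.03; 0.0431 with the correction). It was called with 8 weeks 2 or 1 week 4 left out (12.6% and 5.18% of all genes called). It was lost without any other library (highest adjusted p = 0.0991, with 0.615% to 4.8% of all genes called). Of 18 immediate early genes edgeR called 0, with 3 at an unadjusted p under 0.05 and a median of -0.27. Without 1 week 4 the median was 0.095 and edgeR called 2 of them, Fosb and Klf6, as higher, where it called 2.77% of all genes as higher. DESeq2 and limma-voom called 1, the chaperone gene Hspa1a, at 13.4 ± 2.05 and 21.7 ± 6.82 CPM, and Ier2 stood at 105 ± 16.3 and 144 ± 35.9 CPM.

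The profiles most like those of 3 brakes over the 8 libraries were looked up among 10023 named genes of at least 5 CPM, by the root mean square difference of the centred log2(CPM + 1). Nearest to Nfkbia were Rpa3 (0.14), Serf1 (0.14) and Ly6c1 (0.14), where the median gene stood at 0.43. Nearest to Socs1 were Aox3 (0.18), Hspa1a (0.19) and Nfil3 (0.21), with a median of 0.56, and nearest to Socs3 were Smtnl2 (0.15), Sdcbp2 (0.16) and Slc25a25 (0.17), with a median of 0.43. The best of so many genes will lie close by selection alone, and no test was made.

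The libraries held 16807773, 13037171, 15445210 and 14093048 counts at 8 weeks and 12764356, 13169992, 12114665 and 11747783 at 1 week. Keratins and other epithelial genes were abundant (10 genes, 33792 to 42062 CPM in sum at 8 weeks and 39303 to 45426 CPM at 1 week). Leukocyte markers were near 0: the 3 of 5 found, Ptprc among them, summed to 0.45 to 0.93 CPM at 8 weeks and 0.36 to 0.98 CPM at 1 week, and the 3 of 10 found for T and NK cells to 0.82 to 1.81 CPM and 0.62 to 1.61 CPM. The 8 of 12 found for myeloid and Langerhans cells summed to 8.49 to 18.7 CPM at 8 weeks and 16.8 to 37.7 CPM at 1 week, highest in 1 week 4 and mostly H2-Ab1, which fell (log2 fold change -1.12, SE 0.23, edgeR adjusted p = 0.0224; 0.0501 with the length and GC correction). The means of Itgam, Itgax, H2-Aa and Cd74 were also lower at 8 weeks. Those of Cd68 (1.85 CPM at 8 weeks and 1.04 CPM at 1 week), Lyz2 (0.18 and 0.095) and Csf1r (0.21 and 0.17) were higher. Of 5 fibroblast markers found, Dcn made nearly all of the sum (means of 541 CPM at 8 weeks and 990 CPM at 1 week), and the largest mean of Col1a1, Col1a2, Col3a1 and Pdgfra was 0.496 CPM. Endothelial, melanocyte, muscle and salivary markers summed to at most 9.04 CPM in any library, and the 5 erythroid genes to 23.0 to 71.4 CPM at 8 weeks and 3.38 to 13.7 CPM at 1 week. The part of these cells in the levels of the brakes was not tested, and in a bulk sample fewer cells of a type and less RNA per cell cannot be told apart.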

How the data were processed

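Counts of RNA reads per Ensembl gene were analysed for 8 libraries, 4 of 8 weeks and 4 of 1 week. Per the labels' protocols the epithelium was freed with dispase II, cells were sorted and frozen, and rRNA-depleted stranded libraries for low input were made. Per the submitters' processing notes the build was GRCm38 and the tools were TopHat2 2.1.1, HTSeq 0.6.0, cutadapt 2.10, DESeq2 1.26.0 and bcl2fastq 2.20.0.422. The annotation release and the strand setting are not given in the sources used here. The deposited table held raw counts, a normalized signal that the authors made by dividing counts by 1 size factor per library (0.838 to 1.36), and the authors' log2 fold change, Wald score and p-value. Columns were matched to samples by the library names in the labels, with 0 left over.

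Tests ran on the counts with edgeR 4.0.16 in R 4.3.3 (filterByExpr set to 10 counts per library and 15 in total, TMM scaling, quasi-likelihood F test, two-sided), adjusted by Benjamini-Hochberg over all 14533 genes tested. SE values come from the F statistic, and errors of CPM are SD. Levels per kb use the union of exons in GENCODE M21 (GRCm38), which held 99.8% of the genes and gave the brakes the same positions as the table. The fit was tested on simulated data. Alternatives were 3 other scalings, 2 other filters, DESeq2 1.42.0, limma 3.58.1 (voom with quality weights), splines of each library on transcript length and GC content (4 degrees of freedom each) as offsets, blocks of the replicate numbers, and each library left out. Pairs were compared by exact two-sided permutation tests with a pseudocount of 1.

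The 10 brakes, the lists and the tests were chosen with earlier results of these data known. Genes named are the brakes, the members called in each list (or the 2 with the smallest p where none was) and the partners of the pairs. Fos, Gbp2, Cxcl10, Fosb, Klf6, Relb, Ifngr2, Socs2 and Il1r2 were added after their values were seen. A planned look at protein sequences was not made, and the cells of an age come from 4 animals each, so p-values measure the spread between animals. Counts carry no molecular identifiers.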

Additional observations from a re-analysis of the deposited data

Results flagged for a closer look

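Of 76 groups of 4 libraries checked for a library far from the others, 1 was marked, and chance marks about 1 in 20 such groups. The marked gene, Cxcl10, was chosen after its values were seen, so the mark describes these values and is no test of them. In 1 week 4 Cxcl10 stood at 29.6 CPM, against 3.13, 5.42 and 1.45 CPM in the other libraries of 1 week, and its gap to the nearest of them was above the 95% critical value of Dixon's test. At 8 weeks Cxcl10 stood at 0.70 to 5.62 CPM. Its log2 fold change was -1.84 (edgeR adjusted p = 0.143), and -0.29 without 1 week 4.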

How the results depend on the processing

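With edgeR the count of brakes called stayed at 0 under the other scalings, both filters, the blocks and the length and GC correction, settings that called 0.634% to 8.92% of all genes. DESeq2 and limma-voom each called 1 higher and 2 lower, and with single libraries left out 0 to 1 were higher and 0 to 1 lower. Over all genes, 484 were called higher and 468 lower. These counts were 1006 and 1028 with DESeq2, 772 and 868 with limma-voom, and 168 and 208 with the correction. Library size alone gave 255 lower and no filter 327 higher and 265 lower, and leaving out single libraries gave 48 to 843 higher and 43 to 1048 lower. Of 187 alternative values of the brakes 169 kept their sign and side of the threshold, 9 passed it and 9 changed sign. The sign changes were those of Tnip1 and Tollip under library size alone (0.038 and 0.075) and, with libraries left out, of Tnip1 (-0.12 to 0.041), Tollip (-0.070 to 0.023), Tnfaip3 (-0.62 to 0.020) and Socs3 (-0.41 to 0.081). The cause was not tested.

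Among partners, Irak4 was 0.036 under library size alone and -0.19 to 0.072 with libraries left out, and Ripk1, at 0.049 in all libraries, was -0.084 with the replicate block of the library names, -0.10 with the correction, -0.081 with the correction and the block of the titles, and -0.080 to 0.14 with libraries left out. Fos, at -0.31, was 0.038 with limma-voom, 0.012 with the correction and block, and -0.56 to 0.34 with libraries left out. No pair of a brake and its partner changed sign with another pseudocount, library size alone or a library left out. Whether a pair passed could hardly vary, since a lone smallest p does not pass after adjustment.

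The replicate numbers of the titles do not pair the animals: same-numbered libraries had correlations of -0.31, -0.10, 0.0011 and -0.10 in their deviations from the age means, and 0 of 4 libraries of 8 weeks correlated best with its own number. With these numbers as a replicate block 78 genes were called higher and 83 lower (57 and 72 with the correction as well), and with the numbers of the library names, present for 3 pairs, 26 and 66. Neither block called a brake. Of the 9 list genes called, Cish kept its call with the titles (adjusted p = 0.0399) and lost it with the library names (adjusted p = 0.123), and Rel, Il1r1, Il6st, Lifr, Il20rb, Tyk2, Bcl6 and Il13ra2 lost theirs with both. Irak3, Sigirr and Socs1 rest on 9 to 68 reads per library, which limits what their changes can show, and a filter of 5 CPM in 4 libraries gave no value for them.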
